A study of Mus musculus with 30 samples.

Results

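The purinergic and adenosine receptor genes P2rx4, P2rx7, P2ry2, P2ry6, P2ry10, P2ry12, P2ry13, P2ry14, Adora2a and Adora2b were followed across all conditions of an RNA sequencing study of mouse dendritic cells. They were found by gene symbol in the deposited count table, where each of the 10 symbols stood in 1 row of 25611, and all 10 were among the 14808 genes that passed the filter on low counts. The cells were dendritic cells (cells that take up dying cells or protein and present their antigens to T cells) derived from marrow of mice in 6 to 7 days of culture with 200 ng/ml FLT3L. They were Rubcn KO or wild type (WT). Rubcn encodes Rubicon, which is needed for LC3 to be placed on phagosomes. Cells of each genotype were left untreated, were given OVA protein (the usual short name of ovalbumin) for 30 min or 4 h, or met dying (apoptotic) Jurkat cells, which are a leukaemic T cell line of human origin, over the same times. Each of these 10 groups held 3 libraries. Whether the 3 libraries of a group came from separate mice or cultures is not given in the sources used here, so every p-value measures only the spread between these libraries. The KO allele and the age and sex of the mice are not given there either.

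Cells that die or are stressed release ATP, UTP and UDP-sugars, and enzymes on the cell surface break the ATP down step by step to adenosine. ATP opens the P2X channels, P2Y receptors signal through G proteins when they bind nucleotides, and adenosine receptors answer the end product. In myeloid cells this system is known for guiding phagocytes to dying cells, for triggering the inflammasome through P2rx7, and for damping inflammation through Adora2a and Adora2b, which raise cyclic AMP. Despite its name, P2ry10 is known as a receptor for a lysophospholipid, lysophosphatidylserine, and not for nucleotides.

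Levels are given as CPM (counts scaled to a library of 1e6 counts) on TMM-scaled library sizes, and values in a series are those of libraries 1, 2 and 3. Total counts, in units of 1e6, ran from 9.74 (KO with OVA for 30 min, library 3) to 51.6, with a second lowest of 38.7 and a median of 44.9. TMM factors were 0.765 to 0.842 in the 6 libraries given Jurkat cells for 4 h and 1.03 to 1.07 in the other 24. Rubcn itself averaged 98.9 ± 5.0 CPM (SD, n = 3) without treatment in WT and 72.8 ± 2.7 CPM (SD, n = 3) in KO. It was lower in KO in every condition, by 0.24 to 0.44 on the log2 scale, with no overlap between libraries, and which exons the KO removes is not given in the sources used here. Defining dendritic cell genes were high in every library, with Flt3 at 228 to 582 CPM and Cd74 at 8370 to 17700 CPM. Between the genotypes the marker lists were not level. Of 7 plasmacytoid dendritic cell markers, 4 to 6 were called lower in KO in each condition, while 6 or 7 of 7 basophil or mast cell markers and 4 or 5 of 7 stromal markers were called higher. Over all genes, 3.67% to 13.5% were called lower and 5.58% to 9.37% higher in the same comparisons. In bulk RNA, fewer cells of a type and less RNA per cell cannot be told apart.

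The receptor genes formed 3 groups of neighbours in the mm10 genome. P2rx7 (chromosome 5, 122643911 to 122691432) and P2rx4 (122707544 to 122729738), both on the plus strand, were separated by 16.1 kb. P2ry6 (chromosome 7, 100937634 to 100964366) and P2ry2 (100996568 to 101012053), both on the minus strand, were separated by 32.2 kb. On chromosome 3, P2ry14 (59114623 to 59153492), P2ry13 (59207894 to 59210882) and P2ry12 (59216271 to 59262985) stood in a row on the minus strand, with gaps of 54.4 kb and 5.39 kb. These 3 genes lie inside the interval of Med12l, which is read from the opposite strand. The members' exons shared no base with exons of other genes in the basic set of GENCODE M21, except for 119 bases of P2rx7 (2.15% of its exon length) shared with Mir8115. Transcripts outside the basic set were not checked for shared exon bases. The interval of P2ry14 also overlapped that of F630111L10Rik in the deposited table. Both are on the same strand, so strand would not separate their reads wherever they coincide. The use of strand in counting is not given in the sources used here, so reads from introns of Med12l and reads of these genes may not be told apart wherever they coincide.

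The bases upstream of the start are shown for the members of these neighbourhoods whose values moved together or apart, since each gene has its own start despite the short distances. Sequences are from RefSeq (GRCm38.p6, the build of mm10), read 5′ to 3′ on the gene's strand. They cover the part of the 250 bases before the RefSeq start that precedes the first annotated exon base of any gene. An entry was found for 8 of the 10 members, and capitals mark a match to one of the motifs searched.
P2rx4, chr5:122707294-122707543, plus strand: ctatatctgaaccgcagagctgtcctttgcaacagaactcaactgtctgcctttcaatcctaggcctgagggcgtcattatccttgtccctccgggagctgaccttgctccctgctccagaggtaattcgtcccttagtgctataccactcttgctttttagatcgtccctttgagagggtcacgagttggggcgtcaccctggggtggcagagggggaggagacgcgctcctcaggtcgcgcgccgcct
P2rx7, chr5:122643677-122643910, plus strand: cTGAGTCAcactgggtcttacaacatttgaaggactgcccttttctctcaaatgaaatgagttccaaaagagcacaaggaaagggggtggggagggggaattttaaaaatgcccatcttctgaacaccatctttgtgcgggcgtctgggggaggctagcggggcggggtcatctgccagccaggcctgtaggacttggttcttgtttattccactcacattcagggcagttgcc
P2ry2, chr7:101012054-101012303, minus strand: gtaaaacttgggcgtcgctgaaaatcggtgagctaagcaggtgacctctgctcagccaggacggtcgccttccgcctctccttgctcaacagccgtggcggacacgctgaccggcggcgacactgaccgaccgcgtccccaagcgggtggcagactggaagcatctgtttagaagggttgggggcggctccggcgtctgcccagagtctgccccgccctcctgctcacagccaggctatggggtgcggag
P2ry13, chr3:59210883-59211132, minus strand: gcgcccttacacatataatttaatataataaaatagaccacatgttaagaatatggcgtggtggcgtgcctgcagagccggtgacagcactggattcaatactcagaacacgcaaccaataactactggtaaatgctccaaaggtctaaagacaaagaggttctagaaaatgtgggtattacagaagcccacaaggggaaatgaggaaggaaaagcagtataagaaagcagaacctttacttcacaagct
P2ry14, chr3:59153619-59153742, minus strand: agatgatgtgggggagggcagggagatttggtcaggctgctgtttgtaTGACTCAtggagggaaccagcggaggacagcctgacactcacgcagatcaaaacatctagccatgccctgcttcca

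The capitals in P2rx7 and P2ry14 are matches to the AP-1 element TGANTCA, with their first bases 249 and 202 bases before the start. On either strand, 6.75% of the 32851 windows of 250 bases in the table hold this element. The other motifs searched on both strands were the interferon response element (in 2.98% of windows), the kappa B element (4.11%), the cAMP response element TGACGTCA (1.55%), the E-box CACGTG (6.02%) and the PU.1 element GAGGAAGT (2.44%). None of the 6 was found in the windows of P2rx4, P2ry2, P2ry13 and Adora2b. The window of P2ry10 held a kappa B match and a PU.1 match, 89 and 31 bases before the RefSeq start, and both lie past the first annotated exon base of the gene, outside the upstream part defined above. That of P2ry12 held an E-box match at 228 bases, but none of the window's bases belong to that upstream part. The annotated exon in this window is one of Med12l, not of P2ry12. A match describes letters only, and whether any of these elements acts on its gene was not tested.

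Levels were compared between genes as CPM per kb of exon, so that gene length did not set the order. In untreated WT cells P2ry6, a UDP receptor, averaged 54.2 CPM per kb and P2ry10 averaged 46.4, and the libraries of these genes overlapped. P2rx4, a channel opened by low concentrations of ATP, followed at 31.7 CPM per kb, then P2ry14, a receptor for UDP-sugars, at 24.7 and P2ry13, an ADP receptor, at 20.5. Below these came Adora2a at 9.94, P2rx7 at 6.25 and P2ry12, another ADP receptor, at 5.82 CPM per kb, and the libraries of P2rx7 and P2ry12 overlapped. Adora2b at 3.84 and P2ry2, a receptor for ATP and UTP, at 0.971 CPM per kb were lowest. No other neighbours in this order overlapped, and untreated KO cells gave the same order with no overlap at all. After 4 h with Jurkat cells, the WT order was P2ry10 (62.5 CPM per kb), Adora2a (50.5), P2rx4 (38.1), P2ry14 (36.3), P2ry13 (33.8), P2ry6 (15.5), P2ry12 (6.40), P2ry2 (4.13), Adora2b (3.11) and P2rx7 (1.68). Here P2rx4 overlapped P2ry14, and P2ry14 overlapped P2ry13. P2ry6 and P2rx7 thus moved down the order, P2rx7 to its end, and Adora2a moved up to stand next to P2ry10.

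**Figure D1:**
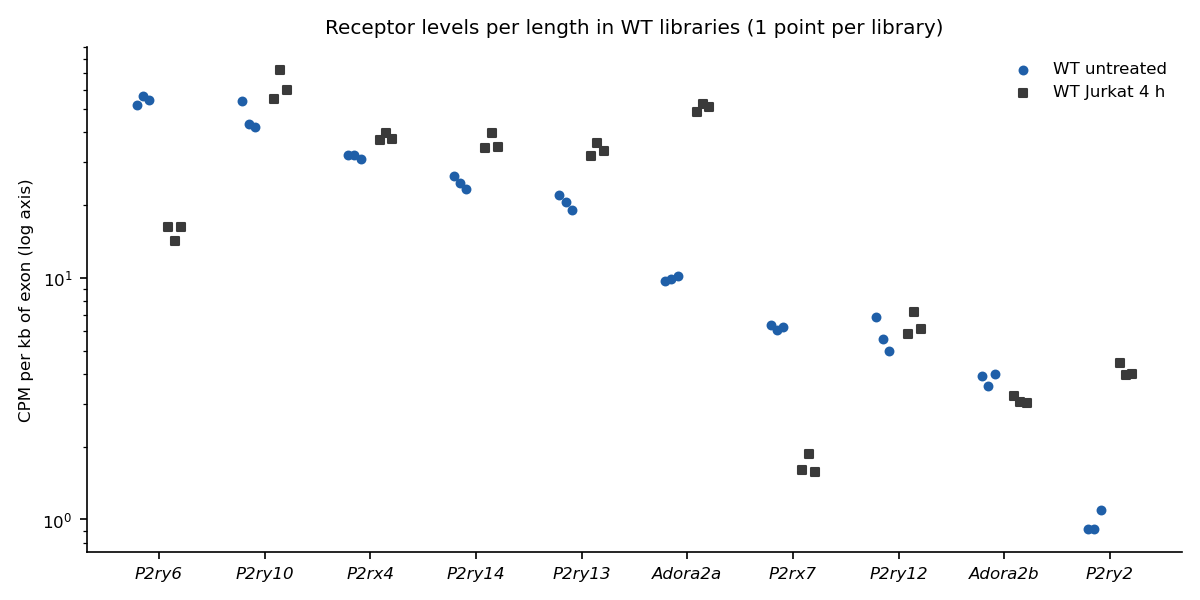
Level of each receptor gene as CPM per kb of exon (log axis) in the 3 untreated WT libraries (circles) and the 3 WT libraries given Jurkat cells for 4 h (squares), 1 point per library, in the order of untreated means. P2ry6 and P2rx7 sit far lower, and Adora2a and P2ry2 far higher, after 4 h with Jurkat cells.

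The first question was how receptor expression changed when the cells met apoptotic cells for 4 h. Adora2a and P2ry2 rose and P2rx7 and P2ry6 fell by large amounts in both genotypes, P2ry13, P2ry14 and P2ry10 rose by less, and P2rx4, P2ry12 and Adora2b moved little. In WT cells 9 of the 10 were called (6 higher, 3 lower), where 79.5% of all genes tested were called (38.9% higher and 40.6% lower). In KO cells 9 were called (7 higher, 2 lower), where 78.5% of all genes were (37.5% higher and 41.0% lower). These shares are near the background. The members' median log2 fold change was 0.35 in WT and 0.47 in KO, beside -0.02 and -0.03 for all genes. Calls are an FDR (Benjamini-Hochberg adjusted p over all genes) under 0.05 in edgeR's quasi-likelihood test of all 30 libraries. All treatments of a genotype share their untreated controls.

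**Figure D2:**
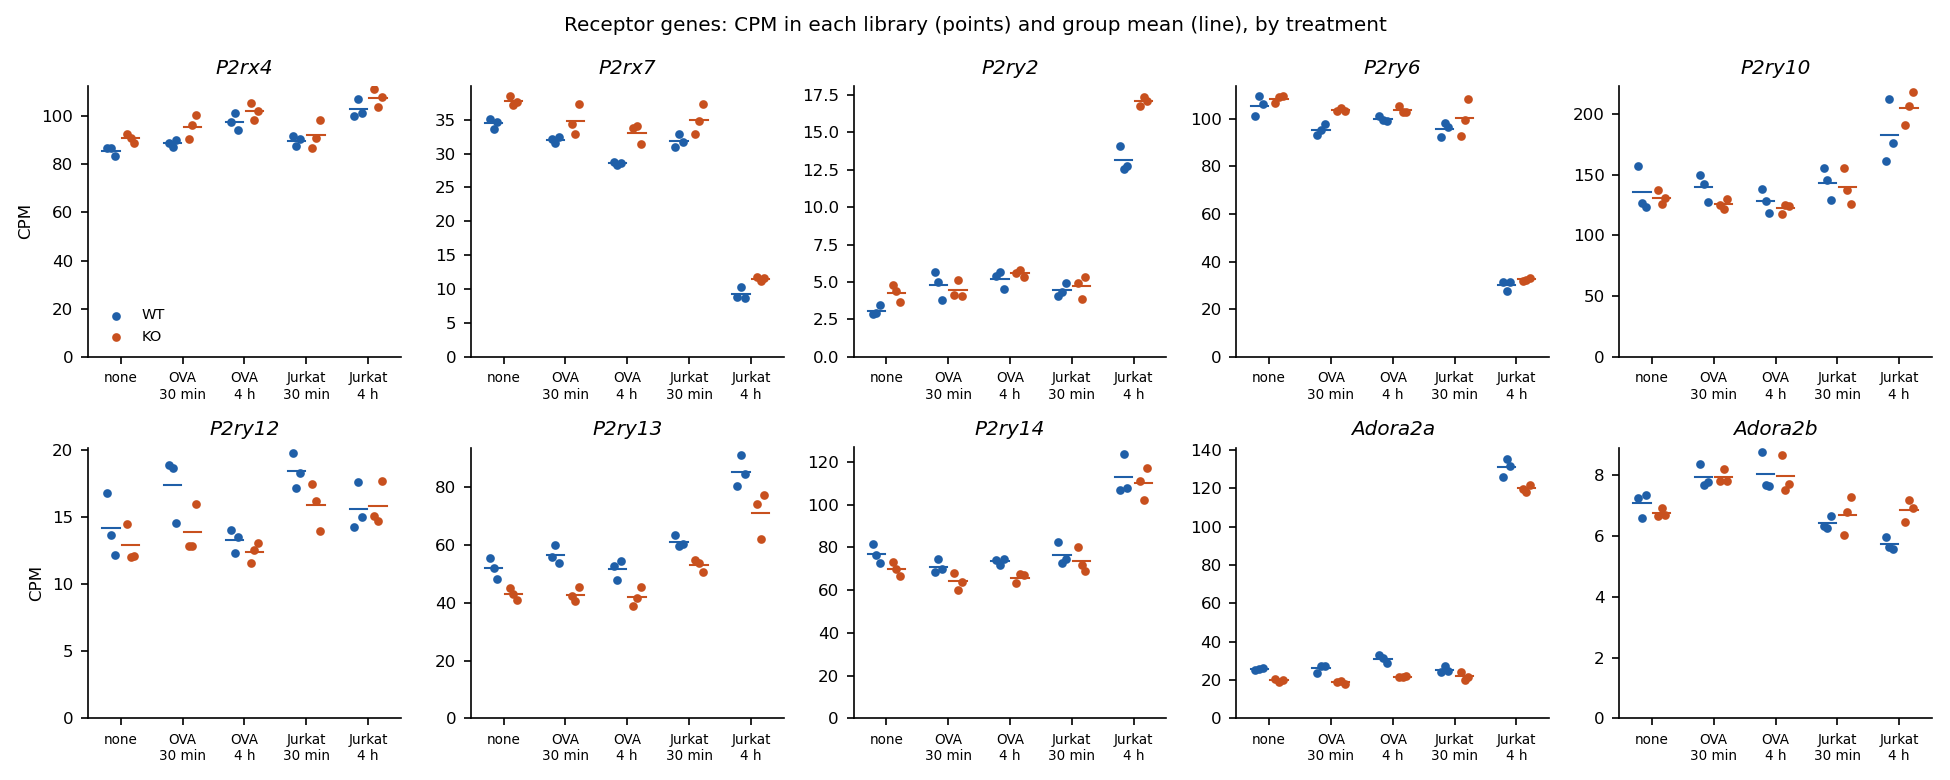
CPM of the 10 receptor genes in each library (points) and the group mean (line), by treatment, with WT in blue and KO in orange, 3 libraries per group. With Jurkat cells at 4 h, P2rx7 and P2ry6 lie below and P2ry2, P2ry10, P2ry13, P2ry14 and Adora2a lie above all libraries of the other treatments of the same genotype, P2ry10 by a narrow margin in WT.

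Among the channels, P2rx7, which opens at high ATP and triggers the inflammasome, measured 35.1, 33.7 and 34.7 CPM in WT without treatment and 8.84, 10.3 and 8.65 CPM with Jurkat cells at 4 h. In KO it measured 38.5, 37.2 and 37.7 CPM untreated and 11.8, 11.2 and 11.6 CPM with Jurkat cells. The groups did not overlap in either genotype. P2rx7 fell by 1.90 on the log2 scale in WT (SE 0.06, FDR = 1.94e-22, edgeR), to 0.268 of the untreated level, and by 1.71 in KO (SE 0.05, FDR = 7.95e-22). Its neighbour P2rx4, a channel found largely on lysosomes, went from 86.8, 86.9 and 83.6 CPM to 100.3, 107 and 101 CPM in WT, and from 92.4, 91.1 and 88.8 to 111, 104 and 108 CPM in KO. These libraries did not overlap either. P2rx4 was higher by 0.26 (SE 0.04, FDR = 3.04e-06) in WT and by 0.25 (SE 0.04, FDR = 7.53e-06) in KO on TMM scaling, but with libraries scaled to total counts its log2 fold change was -0.14 in WT and -0.09 in KO. That scaling moved the median of all genes to -0.42 in WT and -0.37 in KO, so P2rx4 stayed above the median gene, and it took the share of called genes that were higher from 48.9% to 29.0% in WT and from 47.7% to 29.2% in KO.

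Of the receptors coupled to Gq, P2ry6 measured 101, 109.6 and 106 CPM in WT without treatment and 31.5, 27.7 and 31.5 CPM with Jurkat cells at 4 h. In KO the values were 107, 109.2 and 109.4 CPM untreated and 32.0, 32.4 and 33.0 CPM with Jurkat cells. P2ry6 fell by 1.80 in WT (SE 0.05, FDR = 9.79e-24) and by 1.74 in KO (SE 0.05, FDR = 1.92e-23), to 0.287 and 0.300 of the untreated level. P2ry2, known in phagocytes for sensing nucleotides from dying cells, was low before treatment, at 2.89, 2.91 and 3.47 CPM in WT and 4.79, 4.37 and 3.67 CPM in KO. With Jurkat cells at 4 h it reached 14.1, 12.6 and 12.7 CPM in WT and 16.8, 17.4 and 17.1 CPM in KO, above every untreated library. It rose by 2.08 in WT (SE 0.13, FDR = 3.21e-15) and by 2.0 in KO (SE 0.12, FDR = 1.93e-15), a 4.24-fold and a 4.00-fold change. The neighbours P2rx7 and P2rx4, and P2ry6 and P2ry2, thus went in opposite directions on TMM scaling, and at least P2rx7, P2ry6 and P2ry2 kept their direction and call under each alternative run.

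The Gi-coupled receptors of chromosome 3 rose or were not called. P2ry13 went from 55.6, 51.9 and 48.3 CPM in untreated WT to 80.4, 91.1 and 84.7 CPM with Jurkat cells at 4 h, and from 44.9, 42.9 and 41.0 to 74.2, 62.0 and 77.3 CPM in KO. P2ry14 went from 81.5, 76.4 and 72.5 to 107, 124 and 108 CPM in WT, and from 73.2, 70.0 and 66.7 to 111, 102 and 117 CPM in KO. Neither gene's treated libraries overlapped the untreated ones. P2ry13 rose by 0.72 in WT (SE 0.07, FDR = 1.82e-10) and 0.73 in KO (SE 0.07, FDR = 1.78e-10), and P2ry14 rose by 0.55 in WT (SE 0.06, FDR = 6.02e-09) and 0.65 in KO (SE 0.06, FDR = 2.22e-10). P2ry12, the ADP receptor known from platelets and microglia and the closest neighbour of P2ry13, measured 16.8, 13.7 and 12.2 CPM untreated and 14.3, 17.7 and 14.99 CPM with Jurkat cells in WT, and these libraries overlapped. In KO it measured 14.5, 12.04 and 12.1 CPM untreated and 15.1, 14.8 and 17.7 CPM with Jurkat cells. P2ry12 was called in KO (0.30, SE 0.12, FDR = 0.0208) and not in WT (0.14, SE 0.12, FDR = 0.280), and with scaling to total counts the values were -0.04 in KO and -0.27 in WT. The KO call was lost without KO library 3 of Jurkat 4 h (0.21), untreated KO library 2 (0.25) or untreated KO library 3 (0.25), and a call in WT appeared without untreated WT library 1 (0.27, FDR = 0.0432).

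P2ry10, the lysophosphatidylserine receptor, went from 157, 127 and 124 CPM to 161, 212 and 176 CPM in WT and from 137, 126 and 131 to 191, 207 and 218 CPM in KO. Treated libraries stood above the untreated ones in both genotypes, by a narrow margin in WT. It rose by 0.43 in WT (SE 0.09, FDR = 0.000115) and by 0.65 in KO (SE 0.09, FDR = 2.73e-07), and the WT value was 0.02 (FDR = 0.819) with scaling to total counts.

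Both adenosine receptors among the members couple to Gs, yet they differed in size and direction. Adora2a, the receptor of high affinity, measured 25.2, 25.7 and 26.5 CPM in WT without treatment and 126, 135 and 132 CPM with Jurkat cells at 4 h. In KO it went from 20.5, 19.0 and 19.9 CPM to 119.5, 118 and 122 CPM. No other member changed by as much: Adora2a rose by 2.35 in WT (SE 0.06, FDR = 3.93e-24), which is 5.08-fold, and by 2.60 in KO (SE 0.06, FDR = 7.09e-25), which is 6.06-fold. Adora2b, the receptor of low affinity, went from 7.26, 6.60 and 7.37 to 5.96, 5.65 and 5.59 CPM in WT and from 6.66, 6.92 and 6.69 to 6.45, 7.18 and 6.94 CPM in KO. Adora2b fell by 0.30 in WT (SE 0.08, FDR = 0.00101), with no overlap between libraries. In KO the libraries overlapped and the log2 fold change was 0.02 (FDR = 0.811), or -0.32 (FDR = 0.000556) with scaling to total counts.

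Markers of other cells moved in the same libraries. The T cell list, read here also as a measure of reads from the Jurkat cells, summed to 86.2 to 92.0 CPM in untreated WT, 129 to 134 CPM with Jurkat cells at 30 min and 171 to 208.5 CPM at 4 h. In KO the sums were 99.1 to 106, 115 to 124.5 and 151 to 171 CPM. Cd28 alone gave 47.1 to 57.1 CPM in the untreated libraries, which had no Jurkat cells. Of 18 markers tested, 10 were higher and 0 lower at 30 min in either genotype. Over all genes, 14.2% were higher then in WT and 8.72% in KO. At 4 h 16 were higher and 2 lower in WT, where 38.9% of all genes were higher and 40.6% lower. In KO 13 were higher and 3 lower, where 37.5% and 41.0% of all genes were. The defining marker Cd3d stayed at or below 0.184 CPM in every library, and Cd3e reached 6.70 CPM. At 4 h in WT, 38.9% of all genes were higher and 40.6% lower. Of 6 cDC2 markers, 1 was higher and 5 lower (median -1.23), and of 7 cDC1 markers 2 and 4 (median -0.17). Of 7 plasmacytoid dendritic cell markers, 5 were higher and 2 lower (median 0.70). Of 11 monocyte or macrophage markers, 8 were higher and 2 lower (median 0.66). The mean sum of this last list was 2144 CPM untreated and 2110 CPM at 4 h. The part of any of these markers in the receptor changes at 4 h was not tested.

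At 30 min with Jurkat cells the changes were small, and 4 members were called in WT (3 higher, 1 lower), where 28.7% of all genes were called (14.2% up and 14.5% down). In KO 1 was called (higher), where 17.0% of all genes were (8.72% higher and 8.26% lower). P2ry13 was called in both genotypes. It stood at 63.3, 59.6 and 60.4 CPM in WT and at 54.7, 53.7 and 50.5 CPM in KO, above every untreated library of the same genotype. The log2 fold change was 0.24 in WT (SE 0.07, FDR = 0.0123) and 0.30 in KO (SE 0.07, FDR = 0.00314). In WT this call was lost without WT library 1 of Jurkat 30 min (0.21) or untreated WT library 3 (0.19). P2ry2, at 4.09, 4.36 and 4.96 CPM in WT, was higher than untreated by 0.53 (SE 0.14, FDR = 0.00393), while in KO it stood at 4.94, 3.89 and 5.34 CPM (0.14, FDR = 0.507). P2ry12, at 19.8, 17.2 and 18.3 CPM in WT, was higher by 0.38 (SE 0.11, FDR = 0.0117), with no overlap with untreated libraries. In KO its value was 0.30 (SE 0.11, FDR = 0.0670). The WT call of P2ry12 was lost without WT library 1 of Jurkat 30 min (0.32) or untreated WT library 3 (0.28). In KO one appeared without library 3 of Jurkat 30 min (0.39) or untreated library 1 (0.39). P2ry6, at 92.3, 98.1 and 96.7 CPM in WT, was lower by 0.14 (SE 0.04, FDR = 0.0164). This was lost without WT library 1 of Jurkat 30 min (-0.12) or untreated WT library 2 (-0.11), and in KO, where the value was -0.12 (FDR = 0.0694), a call appeared without library 3 of Jurkat 30 min (-0.18). The KO values of P2rx7 (-0.11) and Adora2a (0.15) were also called only when KO library 3 (-0.16) or library 2 (0.21) of Jurkat 30 min was left out.

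**Figure D3:**
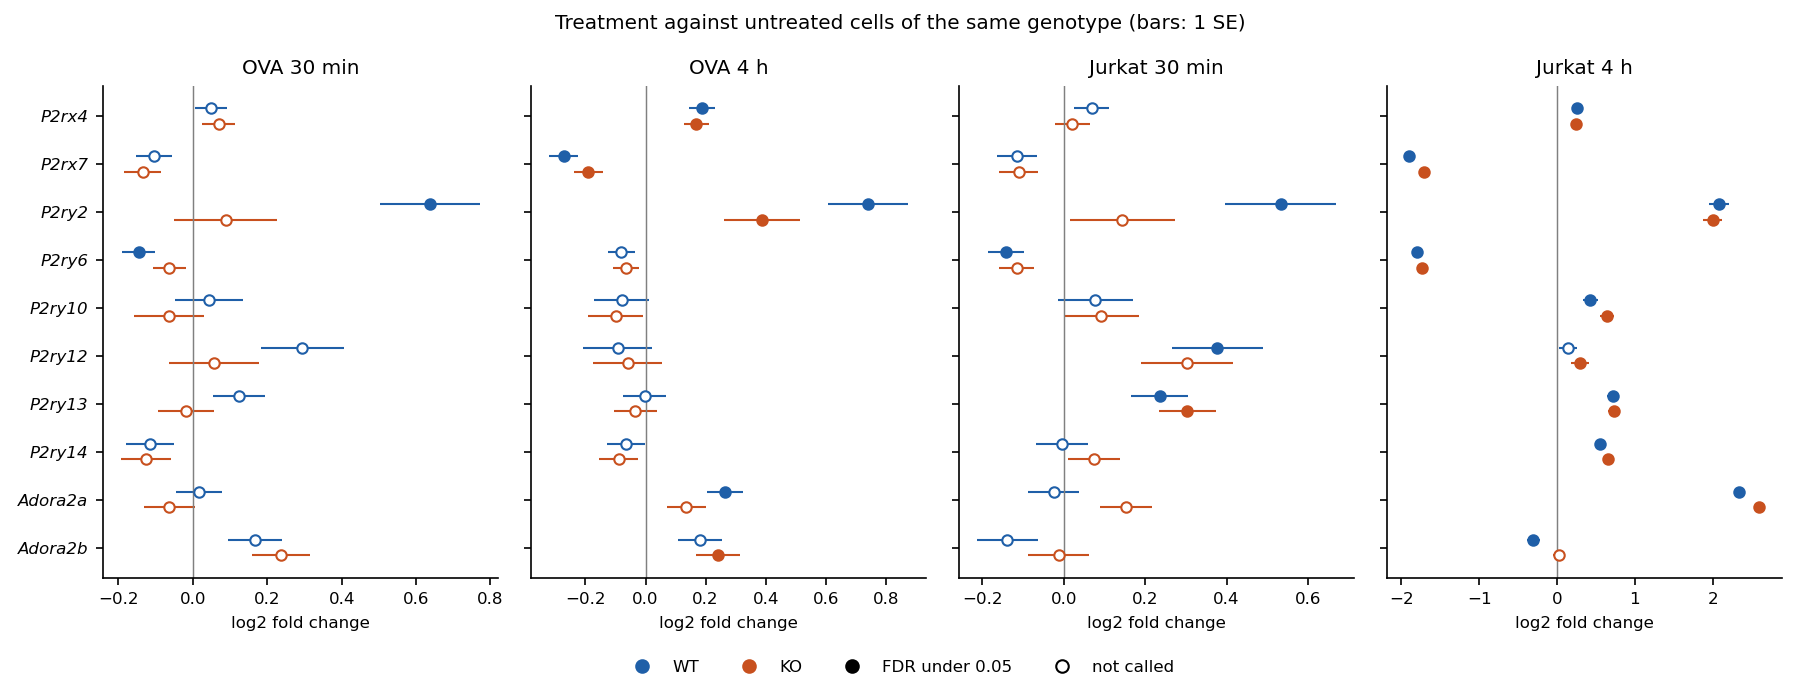
Log2 fold change of each receptor gene with each treatment against untreated cells of the same genotype (WT blue, KO orange, bars 1 SE, filled where the FDR was under 0.05, axes differ between panels). Values with Jurkat cells at 4 h run from -1.90 to 2.60 and all others stay within -0.27 to 0.74. The 4 h Jurkat values of P2rx4 and P2ry12 in both genotypes, and of Adora2b in KO, change sign with scaling to total counts.

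OVA for 4 h raised P2ry2 and P2rx4 and lowered P2rx7 in both genotypes. In WT 4 members were called (3 higher, 1 lower), where 23.5% of all genes were called (11.9% up and 11.7% down). In KO 4 were called (3 higher, 1 lower), where 11.6% of all genes were (5.94% higher and 5.69% lower). P2ry2 measured 5.38, 5.63 and 4.56 CPM in WT, above all 3 untreated libraries, a rise of 0.74 (SE 0.13, FDR = 0.000124). In KO it measured 5.62, 5.77 and 5.36 CPM, a rise of 0.39 (SE 0.13, FDR = 0.0445). The KO call was lost without any of the 3 KO libraries of OVA 4 h (0.38, 0.37 and 0.41) or without untreated KO library 2 (0.40) or 3 (0.29). P2rx4 measured 97.6, 101.5 and 94.2 CPM in WT and 106, 98.3 and 102 CPM in KO, with no overlap with untreated libraries. It rose by 0.19 in WT (SE 0.04, FDR = 0.00163) and by 0.17 in KO (SE 0.04, FDR = 0.00870), the latter not called without KO library 1 of OVA 4 h (0.14). P2rx7 measured 28.8, 28.3 and 28.6 CPM in WT and 33.8, 34.0 and 31.4 CPM in KO. All 6 libraries lay below the untreated libraries of their genotype. P2rx7 fell by 0.27 in WT (SE 0.05, FDR = 0.000120) and by 0.19 in KO (SE 0.05, FDR = 0.00896), the latter not called without KO library 3 of OVA 4 h (-0.16).

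The adenosine receptors also moved with OVA at 4 h, each in 1 genotype. Adora2a measured 32.9, 31.5 and 28.6 CPM in WT, higher by 0.26 (SE 0.06, FDR = 0.00188), and 21.4, 21.8 and 22.1 CPM in KO (0.14, SE 0.06, FDR = 0.189). Adora2b measured 8.66, 7.53 and 7.70 CPM in KO, higher by 0.24 (SE 0.07, FDR = 0.0307), and 8.76, 7.69 and 7.65 CPM in WT (0.18, SE 0.07, FDR = 0.0760). Neither difference between the genotypes' responses passed its own test. The Adora2b call was lost with no filter on low counts (FDR = 0.0528), in a fit of the groups compared alone (FDR = 0.0537) and without KO library 1 of OVA 4 h (0.17) or any of the 3 untreated KO libraries (0.23, 0.26 and 0.23). Of 11 monocyte or macrophage markers, 7 were higher with OVA at 4 h in WT (median 0.38), where 11.9% of all genes were. In KO 5 of them were (median 0.20), where 5.94% of all genes were. The part of these markers in these values was not tested.

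At 30 min OVA changed 2 members in WT, where 10.7% of all genes were called (5.51% higher and 5.15% lower). P2ry2 stood at 5.66, 4.98 and 3.81 CPM, higher than untreated by 0.64 (SE 0.14, FDR = 0.00235). P2ry6 stood at 93.3, 95.1 and 97.6 CPM, lower by 0.15 (SE 0.04, FDR = 0.0297). P2ry6 had no library in common range with untreated cells, but its call was lost in a fit of the groups compared alone (FDR = 0.0776) and without WT library 1 (-0.13) or 2 (-0.14) of OVA 30 min or untreated WT library 2 (-0.12) or 3 (-0.14). P2ry12, at 0.29 (FDR = 0.0951), was called without WT library 3 of OVA 30 min (0.41) or untreated WT library 1 (0.43). In KO, edgeR and DESeq2 called 0 members, where edgeR called 3.77% of all genes (1.88% higher and 1.88% lower). At an unadjusted p under 0.05 there were 2 members in edgeR, P2rx7 (-0.13) and Adora2b (0.24), both named after their values were seen.

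Jurkat cells were next set against OVA at the same time, which compares a cellular with a soluble antigen source. At 4 h the pattern was that of Jurkat cells against untreated cells. In WT 8 members were called (5 higher, 3 lower), where 77.5% of all genes were (37.2% higher and 40.3% lower), and in KO 9 (6 higher, 3 lower), where 76.4% were (36.3% higher and 40.1% lower). Adora2a was higher with Jurkat cells by 2.08 in WT (SE 0.06, FDR = 8.17e-23) and by 2.46 in KO (SE 0.06, FDR = 3.53e-24). P2ry2 was higher by 1.34 and 1.61, P2ry13 by 0.72 and 0.76, P2ry14 by 0.62 and 0.74 and P2ry10 by 0.51 and 0.75, in WT and KO. P2ry6 gave log2 fold changes of -1.72 in WT and -1.68 in KO, and P2rx7 of -1.63 and -1.52. With scaling to total counts the P2ry10 value in WT was 0.12 and no longer called.

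Members that moved little at 4 h separated less clearly. P2rx4 was not called on TMM scaling (0.07 in WT and 0.08 in KO), was called higher with DESeq2 (0.15 and 0.14), and was lower with scaling to total counts (-0.31 and -0.26). There the median of all genes moved to -0.42 in WT and to -0.37 for KO. Of the called genes, the share that were higher went from 48.0% to 26.5% and from 47.5% to 27.5%. P2ry12 was called in KO (0.36, SE 0.12, FDR = 0.00710), but not without KO library 3 of Jurkat 4 h (0.26) or with scaling to total counts (0.02), and its WT value of 0.23 (FDR = 0.0733) was called without WT library 1 of Jurkat 4 h (0.29) and with DESeq2 (0.30). Adora2b was lower with Jurkat cells than with OVA in both genotypes at both times. At 4 h the values were -0.48 in WT (SE 0.08, FDR = 2.37e-06) and -0.22 in KO (SE 0.08, FDR = 0.0103), and the KO call was lost with DESeq2 (FDR = 0.107) and without KO library 1 of Jurkat 4 h (-0.18) or of OVA 4 h (-0.16).

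At 30 min Adora2b was the 1 member called in WT, where 24.3% of all genes were called (11.9% higher and 12.3% lower), at 6.32, 6.28 and 6.67 CPM with Jurkat cells and 8.38, 7.69 and 7.77 CPM with OVA (-0.31, SE 0.07, FDR = 0.00297). In KO 3 members were called (2 higher, 1 lower), where 10.2% of all genes were (5.30% higher and 4.92% lower). Adora2b stood at 6.02, 6.78 and 7.29 CPM with Jurkat cells and 7.81, 8.20 and 7.82 CPM with OVA (-0.25, SE 0.08, FDR = 0.0390). P2ry13 was higher by 0.32 (SE 0.07, FDR = 0.00504), and Adora2a by 0.22 (SE 0.07, FDR = 0.0397). In a fit of the groups compared alone neither Adora2b (FDR = 0.126) nor Adora2a (FDR = 0.130) was called, and DESeq2 did not call Adora2b (FDR = 0.0664). The KO call of Adora2b was also lost without any of 5 of the 6 libraries compared (all but KO library 3 of Jurkat 30 min, -0.27 to -0.18), and that of Adora2a without any of 4 (Jurkat 30 min library 1 or any OVA 30 min library, 0.14 to 0.24). P2ry14 (0.20, FDR = 0.0523) was called with DESeq2 (FDR = 0.0409), and without KO library 3 of Jurkat 30 min (0.25) or KO library 1 of OVA 30 min (0.26). The shallowest library of the series is 1 of these, library 3 of KO with OVA for 30 min, and in that group the counts behind a member ran from 42 for P2ry2 to 1346 for P2ry10 in the library with fewest.

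The second question was how the receptors differed between Rubcn KO and WT cells. Adora2a and P2ry13 were lower in KO before and after treatment, while P2rx7 and P2ry2 were higher in KO in some conditions. In untreated cells 3 members were called (1 higher, 2 lower), where 9.97% of all genes were (6.00% higher and 3.97% lower). OVA gave 3 at 30 min (3 lower), where 12.4% of all genes were called (6.25% higher and 6.13% lower), and 3 at 4 h (1 higher, 2 lower), where 12.6% were (6.22% higher and 6.35% lower). Jurkat cells gave 1 at 30 min (lower), beside 9.25% over all genes (5.58% up and 3.67% down), and 4 at 4 h (3 higher, 1 lower), where 22.9% were (9.37% higher and 13.5% lower). The members' medians ran from -0.12 to 0.08, beside -0.01 to 0.00 for all genes.

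**Figure D4:**
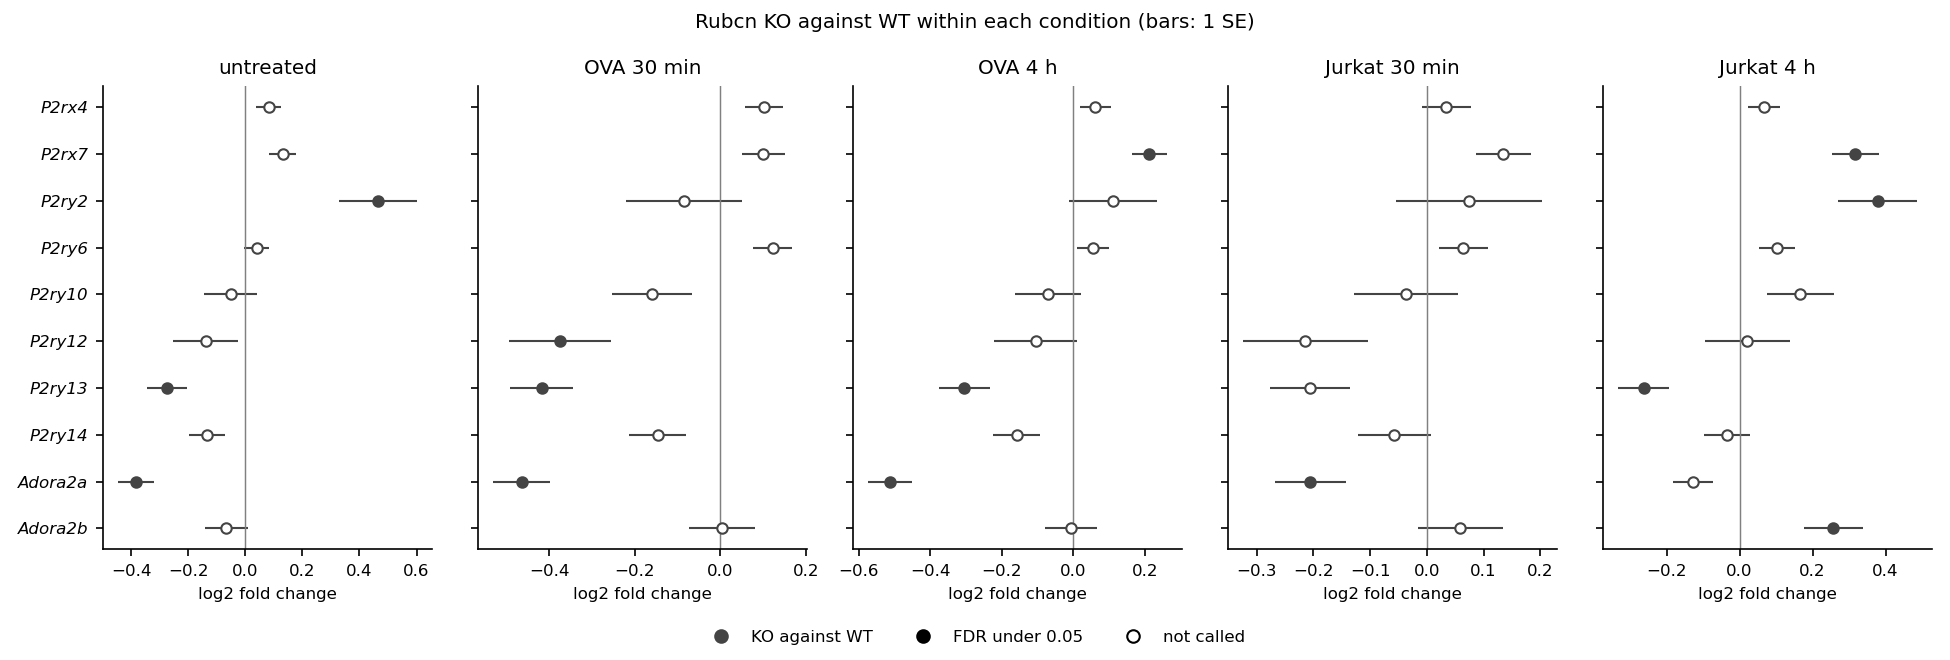
Log2 fold change of each receptor gene in Rubcn KO against WT cells within each condition (bars 1 SE, filled where the FDR was under 0.05, axes differ between panels). Adora2a, P2ry13 and P2ry14 lie below 0 in all 5 conditions and P2rx7, P2rx4 and P2ry6 above 0 in all 5. Of these, P2ry14, P2rx4 and P2ry6 were called in none.

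Adora2a had 25.2 to 26.5 CPM in WT without treatment and 19.0 to 20.5 CPM in untreated KO. With OVA at 30 min it had 23.8 to 27.5 CPM in WT and 18.0 to 19.3 CPM in KO, and at 4 h 28.6 to 32.9 and 21.4 to 22.1 CPM. In these 3 conditions every KO library lay below every WT library. The log2 fold changes were -0.38 untreated (SE 0.06, FDR = 0.000119), -0.46 with OVA at 30 min (SE 0.07, FDR = 2.61e-05) and -0.51 with OVA at 4 h (SE 0.06, FDR = 1.05e-06), and they remained called without any 1 library. With Jurkat cells at 30 min, libraries overlapped, at 24.1, 27.4 and 24.7 CPM in WT and 24.4, 20.1 and 21.4 CPM in KO. The value there was -0.21 (SE 0.06, FDR = 0.0368). It was not called in a fit of the groups compared alone (FDR = 0.170) or without KO library 2 (-0.14) or 3 (-0.19) or WT library 2 (-0.15) or 3 (-0.22) of Jurkat 30 min. At 4 h with Jurkat cells, where both genotypes stood at 118 CPM or more, the libraries did not overlap and the value was -0.13 (SE 0.06, FDR = 0.0922).

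P2ry13 had 48.3 to 55.6 CPM in WT without treatment and 41.0 to 44.9 CPM in untreated KO, and no KO library reached a WT library in any of the 5 conditions. The log2 fold changes were -0.27 untreated (SE 0.07, FDR = 0.0113), -0.42 with OVA at 30 min (SE 0.07, FDR = 0.000308), -0.31 with OVA at 4 h (SE 0.07, FDR = 0.00375), -0.21 with Jurkat cells at 30 min (SE 0.07, FDR = 0.0634) and -0.26 at 4 h (SE 0.07, FDR = 0.00678). The untreated call was lost without untreated KO library 3 (-0.24) or WT library 1 (-0.22), and that of Jurkat 4 h without KO library 2 (-0.17) or WT library 2 (-0.21). DESeq2 called it with Jurkat cells at 30 min (-0.21, FDR = 0.0380). Of its neighbours, P2ry14 was called in none of the 5 conditions (-0.16 to -0.03) and P2ry12 in 1 (-0.38 to 0.02 over the 5). In a fit of the groups compared alone, P2ry14 was called with OVA at 4 h (-0.16, FDR = 0.00876). P2ry12 was lower in KO with OVA at 30 min (-0.38, SE 0.12, FDR = 0.0363), with overlapping libraries at 18.9, 18.7 and 14.6 CPM in WT and 12.8, 12.8 and 16.02 CPM in KO. That call was lost without library 1 or 2 of either group (-0.33 to -0.31). Plasmacytoid dendritic cell markers, which summed to 2546 to 2569 CPM in WT without treatment and 2200 to 2349 CPM in untreated KO, moved in the same direction as Adora2a and P2ry13. In the untreated cells 4 of 7 of them were called lower (median -0.23), where 3.97% of all genes were. With Jurkat cells at 4 h 6 of 7 were (median -0.32), where 13.5% of all genes were. There 4 of 7 neutrophil and 3 of 11 monocyte or macrophage markers were also lower, with 0 higher. Of 7 cDC1 markers, 4 were lower and 1 higher. The part of these markers in the values of Adora2a and P2ry13 was not tested.

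P2rx7 stood above WT in KO in each condition, with log2 fold changes of 0.13 untreated (FDR = 0.0902), 0.10 with OVA at 30 min (FDR = 0.203), 0.21 with OVA at 4 h (SE 0.05, FDR = 0.00349), 0.13 with Jurkat cells at 30 min (FDR = 0.0847) and 0.32 at 4 h (SE 0.06, FDR = 0.000662). At 4 h with Jurkat cells the KO libraries (11.2 to 11.8 CPM) lay above the WT libraries (8.65 to 10.3 CPM). The untreated value was called with scaling to total counts (0.15), and that of Jurkat 30 min without KO library 1 (0.18). P2ry2 was higher in KO in untreated cells by 0.46 (SE 0.14, FDR = 0.0276), where the KO libraries (3.67 to 4.79 CPM) lay above WT (2.89 to 3.47 CPM). Leaving out KO library 1 (0.37) or 2 (0.45) or WT library 1 (0.42) or 2 (0.42) ended that call. It was higher by 0.38 with Jurkat cells at 4 h (SE 0.11, FDR = 0.0113), not called without WT library 2 (0.35), and in the other conditions its values were -0.09 to 0.11. Adora2b was called higher in KO with Jurkat cells at 4 h (0.26, SE 0.08, FDR = 0.0215), at 6.45 to 7.18 CPM against 5.59 to 5.96 CPM in WT. The Adora2b call was lost with DESeq2 (FDR = 0.0619) and without KO library 2 (0.22) or 3 (0.25) or WT library 2 (0.25) or 3 (0.24). P2ry10 at 4 h with Jurkat cells (0.17, FDR = 0.202) was called without WT library 2 (0.28) and with scaling to total counts (0.25). P2rx4 and P2ry6 were not called in any condition, with values of 0.03 to 0.10 and 0.04 to 0.12. Both were called with Jurkat cells at 4 h with scaling to total counts (0.15 and 0.18), and P2ry6 with OVA at 30 min in a fit of the groups compared alone (0.13, FDR = 0.0423). In these libraries 6 or 7 of 7 basophil or mast cell markers were higher in KO (median 1.41 without treatment). The list summed to 147 to 158.5 CPM in WT without treatment and 193 to 221 CPM in untreated KO. Kit, which stands in this list, alone gave 126 to 142 CPM over the untreated libraries of both genotypes, so it made up most of each sum. Whether the listed markers had a part in the higher KO values was not tested. With scaling to total counts the share of called genes that were higher in KO went from 40.9% to 74.8% with Jurkat cells at 4 h, from 50.5% to 63.8% with OVA at 30 min and from 49.5% to 64.5% with OVA at 4 h.

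The KO response minus the WT response was tested for each treatment. By edgeR, 0 of the 10 members were called for OVA at 30 min (0% of all genes called), OVA at 4 h (0.0405%), Jurkat cells at 30 min (0.00675%) or Jurkat cells at 4 h (4.26%, 1.72% higher and 2.55% lower), and DESeq2 also called 0 in each. At an unadjusted p under 0.05, edgeR gave 1, 0, 1 and 3 members, named here after their values were seen. The P2ry2 difference was -0.55 with OVA at 30 min (SE 0.19, unadjusted p = 0.00816, FDR = 0.894, edgeR) and -0.39 with Jurkat cells at 30 min (unadjusted p = 0.0473, FDR = 0.664, edgeR). With Jurkat cells at 4 h the differences were 0.26 for Adora2a (SE 0.08, FDR = 0.0791), 0.32 for Adora2b (SE 0.11, FDR = 0.0911) and 0.19 for P2rx7 (SE 0.08, FDR = 0.197). The 95% interval of the Adora2a difference was 0.09 to 0.42, and it was called in a fit of the groups compared alone (0.30, FDR = 0.0202) and with scaling to total counts (0.32, FDR = 0.0174), where Adora2b was called too (0.39, FDR = 0.0415). That scaling took the share of called genes with a higher KO response from 40.3% to 76.8%. For OVA at 4 h the differences were -0.13 for Adora2a (FDR = 0.765) and 0.06 for Adora2b (FDR = 0.943). The intervals do not show that the genotypes responded alike: for P2ry2 with Jurkat cells at 4 h, the value was -0.09 with an interval of -0.43 to 0.25.

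The other receptors of these families were followed as a list of 10, of which 6 passed the filter on low counts. Adora3, a Gi-coupled adenosine receptor, went opposite to Adora2a, from 11.0, 10.7 and 11.0 CPM in untreated WT to 0.918, 1.14 and 1.23 CPM with Jurkat cells at 4 h, a log2 fold change of -3.32 (SE 0.09, FDR = 5.78e-24). In KO it went from 11.9, 11.5 and 11.4 to 1.45, 1.38 and 1.41 CPM (log2 -3.03, SE 0.08, FDR = 9.09e-24). The adenosine receptor genes thus split: Adora2a rose, Adora3 fell, and Adora2b fell in WT alone among the called results, on TMM scaling. Adora3 was also lower with OVA at 4 h (-0.38 in WT and -0.21 in KO). P2rx5, a P2X subunit, rose with OVA at 30 min (0.24 in WT, 0.34 in KO), with OVA at 4 h (0.20 and 0.26) and with Jurkat cells at 4 h (0.43 and 0.64). These values are on TMM scaling, and P2rx5 was not followed under other scalings. The member P2ry10, with a like WT value for Jurkat cells at 4 h (0.43), gave 0.02 with scaling to total counts. P2ry1, an ADP receptor, had 2.67 to 2.71 CPM in WT without treatment and 3.67 to 4.16 CPM in untreated KO. P2ry1 was called higher in KO untreated (0.51, SE 0.13, FDR = 0.0109), with OVA at 4 h (0.45) and with Jurkat cells at 4 h (0.42). P2rx1 (1.20 to 2.28 CPM over all libraries), P2rx3 and Adora1 were low. Adora1 reached 0.239 to 0.393 CPM in WT with Jurkat cells at 4 h from at most 0.0216 CPM untreated. P2rx2, P2rx6, P2ry4 and Gpr17 did not pass the filter, and the highest value among them was 0.389 CPM.

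**Figure D5:**
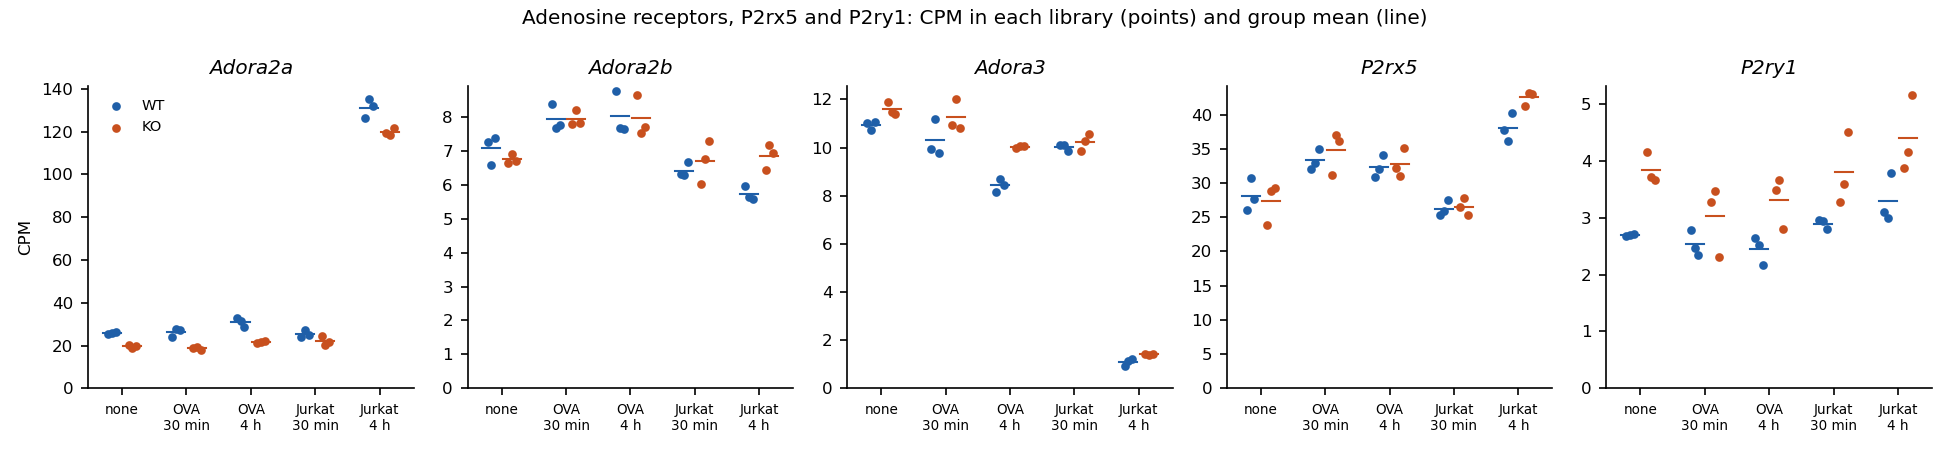
CPM of the adenosine receptor genes Adora2a, Adora2b and Adora3 and of P2rx5 and P2ry1 in each library (points) and the group mean (line), by treatment, WT in blue and KO in orange. With Jurkat cells at 4 h Adora3 drops to 0.918 to 1.45 CPM in all 6 libraries while Adora2a lies at 118 CPM or more.

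Genes that supply and remove the ligands were counted next, from lists written for this description. Of 10 ATP release and transport genes tested, 3 rose and 5 fell with Jurkat cells at 4 h in WT, where 38.9% of all genes rose and 40.6% fell (median -0.11, beside -0.02 for all genes). Calhm2, a channel family member, went from 70.5 to 72.3 CPM untreated to 22.1 to 23.6 CPM (log2 -1.63, SE 0.06, FDR = 1.24e-20). Slc17a9, the vesicular nucleotide transporter, gave log2 -1.09 and Lrrc8d, a volume-regulated channel subunit, -0.98. Panx1, the channel that dying cells open to release ATP, fell by 0.37 in WT and by 0.22 in KO. Of 8 ectonucleotidase genes tested, 4 rose and 2 fell, beside the same 38.9% and 40.6% of all genes (median 0.37). Entpd1 (CD39), which turns ATP and ADP into AMP, stood at 90.2 to 98.5 CPM in untreated WT. On TMM scaling, Entpd1 rose with Jurkat cells at 4 h in WT (0.20) and fell in KO (-0.16), and this difference between the responses was called (-0.36, SE 0.07, FDR = 0.00233). It was already called higher in KO than in WT before treatment. Entpd1 was not followed under other scalings, and scaling to total counts moved the median of all genes at 4 h to -0.42 in WT and -0.37 in KO. Nt5e (CD73), which turns AMP into adenosine, stood at 0.259 to 0.531 CPM in WT without treatment and was called in no comparison. Cd38, which uses NAD, was higher in KO untreated (0.61, SE 0.12, FDR = 0.000864), and Enpp1, which cleaves ATP, likewise (0.46, SE 0.11, FDR = 0.00555). Of the 8, 3 were called higher and 0 lower in untreated KO cells, where 6.00% of all genes were higher and 3.97% lower (median 0.22).

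Of 12 genes of adenosine and inosine uptake and breakdown, 4 rose and 4 fell with Jurkat cells at 4 h in WT, where 79.5% of all genes were called, 38.9% higher and 40.6% lower (median -0.01). Pnp, which breaks down inosine, went from 156 to 162 CPM to 871 to 1017 CPM (log2 2.56, SE 0.07, FDR = 3.81e-24), and Ada, which deaminates adenosine, from 5.79 to 6.58 to 12.8 to 16.7 CPM (1.31, SE 0.08, FDR = 7.09e-15). Adk, which phosphorylates adenosine, went down by log2 -0.85. The Ada response was smaller in KO, with a difference of -0.64 (SE 0.12, FDR = 0.00182). Of 18 T cell markers tested with Jurkat cells at 4 h, 5 were lower and 0 higher in KO than in WT (median -0.34). Over all genes, 13.5% were lower and 9.37% higher there. How human reads were handled is not stated, and the part of Jurkat reads in the Ada values was not tested. Of 24 genes of G proteins and cAMP signalling, 10 rose and 13 fell in WT, beside the same shares of all genes (median -0.25). Adcy7, an adenylate cyclase below the Gs-coupled receptors, went from 594 to 611 CPM to 118 to 127 CPM (log2 -2.31, SE 0.04, FDR = 5.10e-28), and Prkacb, a catalytic subunit of protein kinase A, gave -1.43. Pde4b, which degrades cAMP, rose by 1.53. In the inflammasome list, written for the output of P2rx7, 6 of 10 genes rose and 4 fell, again beside 38.9% and 40.6% of all genes (median 1.38). Panx1 stands in this list and in that of ATP release, and its fall is counted in both. Il1b went from 22.8 to 25.6 CPM to 922 to 997 CPM in WT, Casp4 gave 4.69 and Nlrp3 1.48, in the same libraries in which P2rx7 fell. Set against WT, KO cells had 2 of these 10 lower and 0 higher untreated (3.97% and 6.00% of all genes), 3 and 0 with OVA at 30 min (6.13% and 6.25%), and 5 and 0 with OVA at 4 h (6.35% and 6.22%). Jurkat cells gave 3 lower and 1 higher at 30 min (3.67% and 5.58%) and 4 lower and 2 higher at 4 h (13.5% and 9.37%). The list's median difference lay between -0.19 and -0.09 in the 5 conditions.

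Over the 10 group means, the genes whose log2 CPM was most like a member's were read as a description, with the 2 highest Pearson correlations among 10715 candidate genes. For Adora2a these were Lgals9 (r = 0.999) and Sgcb (0.998), for P2rx7 Mxd4 (0.999) and Hepacam2 (0.999), and for P2ry6 Pqlc1 and Mmgt2 (both 0.998). For P2ry2 they were Opa3 (0.989) and Tmem165 (0.988), for P2ry13 Pdlim1 (0.985) and Ptbp3 (0.982), for P2ry14 Bco2 (0.987) and Btbd10 (0.986), and for P2ry10 Map4k4 (0.984) and Kctd12b (0.981). P2rx4 (Myo1e, 0.979, and Pcdh7, 0.976), Adora2b (Zfp948, 0.972, and Zfp971, 0.928) and P2ry12 (Ythdf3, 0.897, and Sp2, 0.894) had lower values. Among the members themselves, P2rx7 and P2ry6 gave r = 0.991 and P2rx7 and Adora2a r = -0.991. The group means share libraries within a group, and both groups given Jurkat cells for 4 h stand far from the other 8 for several members.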

How the data were processed

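RNA from 30 libraries (TruSeq RNA Library Prep Kit v2, per the labels' protocols) was measured as read counts per gene, which the authors deposited in 1 table of raw counts. The submitters' processing notes name STAR 2.5, Subread, featureCounts 1.5.0-p1, DESeq2 and mm10, without their roles. Neither the treatment of human Jurkat reads nor the strand setting is stated there.

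Groups were taken from the sample labels. Genes passing edgeR's filterByExpr by group were fitted with edgeR 4.0.16 (R 4.3.3) by the quasi-likelihood test, with TMM scaling, 1 mean per group and 21 contrasts. P-values were adjusted over all 14808 genes tested, and SEs were taken from the fold change and its F statistic. The common biological coefficient of variation was 0.0515. The scripts were tested on simulated data. DESeq2 1.42.0, other scalings and filters, a fit of the groups compared alone, a replicate block and leaving out each library were the alternatives. Single genes other than the members were not followed under these alternatives.

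The members and lists were chosen with earlier results of these data known. Named genes are the members, the detected genes of the other-receptor list, up to 3 genes with the smallest p per pathway list and contrast among those called, the 2 genes most correlated with each member among tested genes reaching 5 CPM in a group, genes overlapping a member, Rubcn and the marker lists. Panx1, Nt5e and, in their contrasts, Entpd1, Enpp1 and other list genes outside this rule were named after their values were seen.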

Additional observations from a re-analysis of the deposited data

How the results depend on the processing

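The counts of called members moved by over 1.5 times in few settings. In a fit of the groups compared alone they were 1 for Jurkat against OVA at 30 min in KO, 1 for OVA at 30 min in WT and 1 for the difference between responses to Jurkat cells at 4 h. DESeq2 gave 2, and no filter on low counts 2, for KO against WT with Jurkat cells at 30 min. Scaling to total counts gave 7 for KO against WT with Jurkat cells at 4 h and 2 for the difference between responses there. The same scaling turned the direction at 4 h with Jurkat cells of Adora2b in KO (-0.3182), P2rx4 in KO (-0.09225) and WT (-0.1406) and P2ry12 in KO (-0.04127) and WT (-0.2673), and of P2rx4 against OVA in KO (-0.2648) and WT (-0.3132).

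Leaving out 1 library gave ranges of called members of 1 to 4 (Jurkat 30 min, KO), 1 to 4 (Jurkat 30 min, WT), 8 to 9 (Jurkat 4 h, KO), 9 to 10 (Jurkat 4 h, WT), 0 to 0 (OVA 30 min, KO), 1 to 3 (OVA 30 min, WT), 1 to 3 (OVA 4 h, KO) and 4 to 4 (OVA 4 h, WT). For Jurkat against OVA they were 1 to 4 and 1 to 1 at 30 min and 8 to 9 and 8 to 9 at 4 h, in KO and WT. For KO against WT they were 1 to 3 untreated, 2 to 3 and 3 to 3 with OVA at 30 min and 4 h, and 0 to 2 and 2 to 4 with Jurkat cells at 30 min and 4 h. For the differences between responses they were 0 to 0.

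Replicate numbers gave at most a weak sign of pairing, read from correlations between libraries of the deviations from the group means. For KO and WT libraries of a condition, 1 of 15 same-numbered pairs lay above 0.1 (median -0.0128). Of the differently numbered pairs, 0 of 30 did (median 0.00422). Within a genotype, 6 of 60 same-numbered pairs (median 0.0148) and 2 of 120 differently numbered pairs (median -0.0064) lay above 0.1. With a replicate block, P2ry2 with OVA at 4 h in KO lost its call (0.3873, FDR = 0.0588) and P2ry14 for Jurkat against OVA at 30 min in KO gained one (0.2021, FDR = 0.0476), of 210 results.

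Over all genes, the fit of the groups compared alone called 1460 against 2514 (Jurkat 30 min, KO), 734 against 1514 (Jurkat against OVA, 30 min, KO), 891 against 1370 (KO against WT, Jurkat 30 min), 337 against 631 (difference between responses, Jurkat 4 h), 246 against 558 (OVA 30 min, KO) and 833 against 1578 (OVA 30 min, WT). For the difference between responses to OVA at 4 h, 6 genes were called against 25 with DESeq2, 10 with at least 5 CPM in 3 libraries, 11 with no filter and 12 with the block, and for Jurkat cells at 30 min 1 against 12 with DESeq2, 7 with no filter and 0 with at least 5 CPM in 3 libraries, the groups compared alone or the block.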
